A study of Mus musculus with 8 samples.

Results

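Eosinophil granule and receptor genes were examined in T_regs_ differentiated for 2 days from splenic naive CD4+ T cells of mice labelled WT or Alox15-/-. The set holds 9 of the 28239 gene symbols counted, taken by symbol: Prg2, Prg3, Epx, Ear1, Ear2 and Ear6, which code for granule proteins, and Siglecf, Il5ra and Ccr3, which code for surface receptors. It was chosen with the contrast between the genotypes known, so the levels and fold changes of the 9 genes are a description and carry no p-value. Each group holds 4 libraries, and the design text gives 4 mice per genotype, whose background the labels name as C57BL/6. All cells, of either genotype, received IL-2, TGF-β and beads that engage CD3 and CD28. The study's methods give mice of both sexes aged 10 to 12 weeks, and name Charles River as the source of WT mice and The Jackson Laboratory as that of Alox15-/- mice, so supplier and genotype cannot be told apart. The naive cells were enriched by immunomagnetic negative selection, which leaves behind any cell that the depleting antibodies miss.

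Eosinophils are granulocytes that arise in bone marrow under GATA transcription factors and mature under IL-5. Their granules hold cationic proteins: major basic protein (Prg2) and its homolog (Prg3), eosinophil peroxidase (Epx), and the eosinophil-associated ribonucleases (Ear genes). IL-5 acts through the receptor chain Il5ra and a shared beta chain, eotaxins act through the chemokine receptor Ccr3, and Siglecf is a sialic acid-binding lectin used to identify mouse eosinophils. Tregs are not known for any of these granule proteins.

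RNA was profiled by MACE-seq, which sequences transcripts near their 3′ ends, and levels are CPM, the count of a gene divided by the scaled total of its library and expressed per 1000000 reads. A transcript gives tags from its end whatever its length, so the values were not divided by length and no order of genes by level is drawn. The total count was between 3723151 and 6952596 in the libraries labelled Alox15-/- and between 4810125 and 9538962 in libraries labelled WT. At these depths 1 read is worth between about 0.1 and 0.27 CPM. In a bulk sample, fewer cells of a type and less RNA per cell cannot be told apart. The Treg genes Foxp3 (93.0 ± 17 CPM in the libraries labelled Alox15-/- and 124 ± 47.2 in WT, SD, n = 4 each) and Il2ra (764 ± 81.8 and 829 ± 55.1 CPM) were detected in every library. The targeted gene went against its label. Alox15 had 292, 255, 337 and 454 reads in the libraries labelled Alox15-/- and 12, 16, 77 and 43 in libraries labelled WT, a log2 fold change of 3.65 (SE 0.299, adjusted p = 1.08e-05, edgeR quasi-likelihood test). The counts do not show whether the tags counted for Alox15 lie outside the deleted part of the gene, in which case they check nothing, or whether labels were exchanged, which would reverse every direction given here. The genotype is therefore given as labelled, WT replicate means a replicate labelled WT, and each direction below sets libraries carrying the Alox15-/- label against WT ones.

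The granule genes were higher in every library labelled Alox15-/- than in any library labelled WT when summed. Their summed level was 44.2, 77.7, 65.8 and 21.3 CPM in replicates 1 to 4 labelled Alox15-/-, and 1.25, 4.14, 4.62 and 6.47 CPM in WT replicates 1 to 4. The ratio of the group means was 12.7. The 3 receptor genes together had 10 reads in the libraries labelled Alox15-/- and 44 in libraries labelled WT, of which 39 are Ccr3 reads of WT replicate 2. Without that library the reads were 10 against 5. Of the 9 genes, Prg2 and Epx passed the filter of at least 2 CPM in at least 4 libraries, and the other 7 lay below it. Prg2 and Epx were both among the genes past the adjusted threshold of 0.05 and higher, against 1.05% of the 12700 genes tested (0.197% were lower), a count from which nothing is read because the set was chosen on this contrast. All 4 libraries labelled Alox15-/- lay above all 4 libraries labelled WT for Prg2, Prg3, Epx, Ear1 and Ear6, 5 of the 9 genes, against 2.15% of all 28239 symbols. The same caution holds for that count. The values of the 2 genes nearest to the filter show where it divides the set. Epx, inside it, reached 2 CPM in 6 libraries, and Prg3, outside it, in 2.

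**Figure D1:**
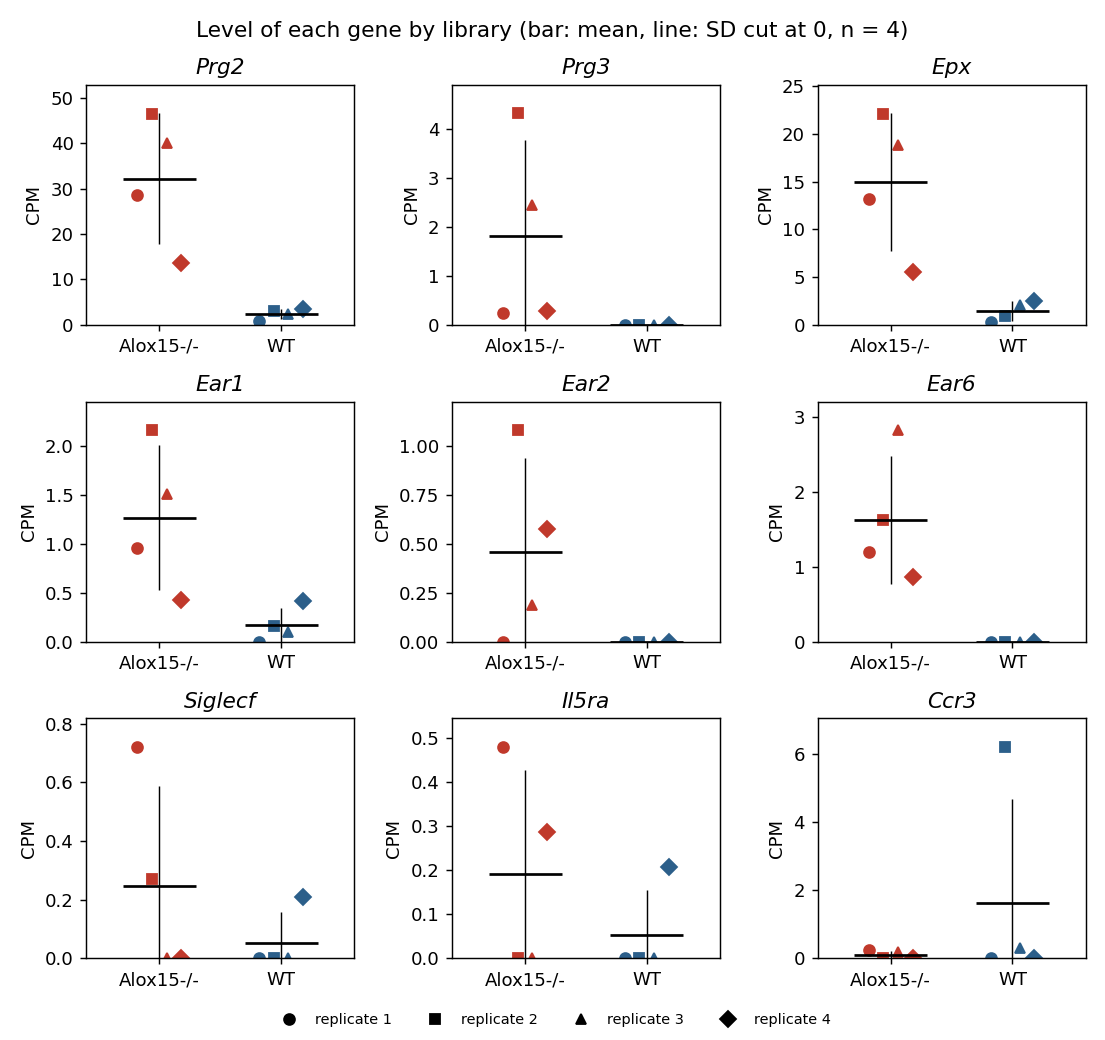
Level of each of the 9 genes in CPM (vertical axis, a separate scale from 0 for each gene) by group, with 1 point per library, the mean as a bar and the SD as a line cut at 0 (n = 4 per group). Prg2 and Epx lie above every library labelled WT in each library labelled Alox15-/-, and the only high value of Ccr3 is the 6.21 CPM of WT replicate 2.

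Prg2 (ENSMUSG00000027073.5) lies on the plus strand at chr2:84980461-84983632 of GRCm38 and codes for major basic protein, the core of the eosinophil granule. It had 119, 172, 213 and 95 reads in the libraries labelled Alox15-/- and 6, 19, 24 and 17 in libraries labelled WT. Scaled, these were 28.6, 46.4, 40.1 and 13.6 CPM against 0.936, 3.03, 2.41 and 3.55 CPM. The groups do not overlap, and the lowest library labelled Alox15-/-, replicate 4, still exceeded the highest library labelled WT. The mean was 32.2 ± 14.4 CPM against 2.48 ± 1.13 CPM (SD, n = 4 each), and the fitted log2 fold change was 3.70 (SE 0.383).

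Epx (ENSMUSG00000052234.2), eosinophil peroxidase, lies on the minus strand at chr11:87864000-87875536, 17.512 Mb from Alox15 on the same chromosome. It had 55, 82, 100 and 39 reads in the libraries labelled Alox15-/- and 2, 6, 21 and 12 in libraries labelled WT. Scaled, these were 13.2, 22.1, 18.8 and 5.58 CPM against 0.312, 0.956, 2.11 and 2.51 CPM. Epx kept the order of Prg2 among the libraries labelled Alox15-/-, with replicate 2 highest and replicate 4 lowest, and WT replicate 1 was lowest for both. Its mean was 14.9 ± 7.24 CPM against 1.47 ± 1.01 CPM (SD, n = 4 each), with a log2 fold change of 3.29 (SE 0.468). Without replicates 2 and 3 labelled Alox15-/-, the log2 fold change of Prg2 was 3.09 and that of Epx 2.62, and the summed level of the 9 genes fell from 9.03 to 5.75 times the WT mean.

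Prg2 and Epx made up between 87.9% and 91.6% of the reads of the 9 genes in each library labelled Alox15-/-. The share of Prg2 in the reads of both was 68.4%, 67.7%, 68.1% and 70.9% in the libraries labelled Alox15-/-, of 174, 254, 313 and 134 reads. It was 75.0%, 76.0%, 53.3% and 58.6% in libraries labelled WT, of 8, 25, 45 and 29 reads. The share thus varied by little among libraries labelled Alox15-/- whose levels differed by over 3-fold, while the WT shares were spread more widely and rest on few reads. The exact 95% binomial interval was 34.9% to 96.8% in WT replicate 1 and 37.9% to 68.3% in WT replicate 3, and the intervals of WT replicates 1, 2 and 4 hold all 4 shares of the other group. Pooled, Prg2 held 68.5% (65.3% to 71.5%) of the reads in libraries labelled Alox15-/- and 61.7% (51.8% to 70.9%) in libraries labelled WT. These intervals overlap, and the WT share rests on 107 reads in all. Binomial intervals cover counting error only.

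**Figure D2:**
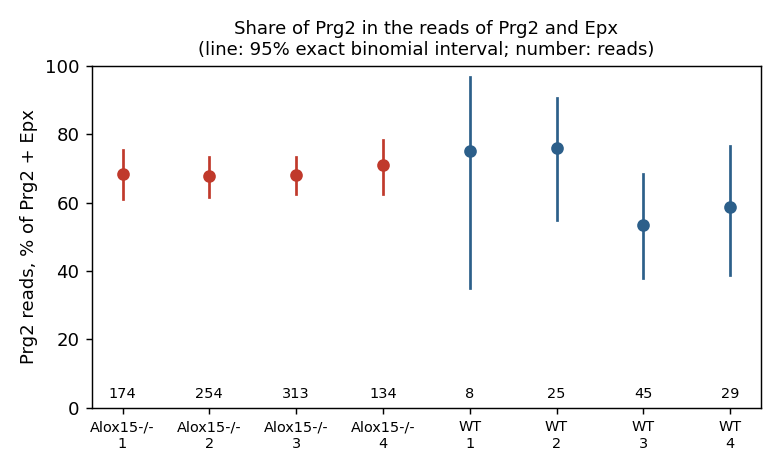
Share of Prg2 reads among the reads of Prg2 and Epx (vertical axis, %) in each library, with the exact 95% binomial interval as a line and the number of reads printed at the foot. The 4 libraries labelled Alox15-/- sit between 67.7% and 70.9%, and the intervals of the libraries labelled WT overlap that range.

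Prg3, the homolog of major basic protein, lies 4.583 kb downstream of Prg2 on the same strand, at chr2:84988215-84993886. It had 1, 16, 13 and 2 reads in the libraries labelled Alox15-/- and no read in any library labelled WT. Replicates 2 and 3 therefore hold 29 of its 32 reads. Over the pooled reads of each group, set against a floor of 3 reads for the WT group, Prg3 was at least 14.5-fold higher in the libraries labelled Alox15-/-. Among the 6 other protein-coding genes within 250 kb of Prg2 that were tested, Ube2l6, a ubiquitin-conjugating enzyme of the ISG15 pathway, passed the threshold (log2 fold change 1.33, adjusted p = 0.0299, edgeR).

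Promoter windows of RefSeq (GRCm38.p6), from 250 bases before to 50 bases after the transcription start, were matched to 8 of the 9 symbols, all but Prg2. Prg3 and Epx, both granule genes that were higher in the libraries labelled Alox15-/-, are shown because a GATA motif is found in the window of 1 and not of the other. The capitals mark the GATA motif, searched on both strands as the letters AGATAA or, with another first base, TGATAA, and as the forms of each that end in G, which are AGATAG for the former and TGATAG for the latter. The windows are chr2:84987965-84988264 on the plus strand for Prg3 and chr11:87875487-87875786 on the minus strand for Epx, each written 5′ to 3′.
Prg3: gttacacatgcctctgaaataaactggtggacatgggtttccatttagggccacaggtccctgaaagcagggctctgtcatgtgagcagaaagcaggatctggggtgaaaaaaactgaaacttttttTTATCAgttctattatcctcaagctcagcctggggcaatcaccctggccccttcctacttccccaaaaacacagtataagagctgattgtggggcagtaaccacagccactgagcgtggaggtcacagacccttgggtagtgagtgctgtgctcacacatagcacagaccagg
Epx: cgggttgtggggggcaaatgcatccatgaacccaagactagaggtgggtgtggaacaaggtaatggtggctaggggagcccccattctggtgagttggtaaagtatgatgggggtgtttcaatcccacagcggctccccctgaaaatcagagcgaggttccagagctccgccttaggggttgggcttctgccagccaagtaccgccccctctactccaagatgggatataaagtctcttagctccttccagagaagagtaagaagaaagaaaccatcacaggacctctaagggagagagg

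In the Prg3 window the motif lies 123 bases before the start, read on the opposite strand. The Epx window holds no GATA motif in these letters and has the letters TATAAA beginning 24 bases before the start. Over the set, a GATA motif was found in 4 of 8 windows (Prg3, Siglecf, Il5ra and Ccr3), compared with 29.8% of all 32851 windows. The letters AGGAAG, bound by the myeloid factor PU.1, were found in 4 of 8 (Prg3, Ear1, Ear2 and Siglecf), against 35.4% of all windows. The letters TTGCNNAA, a C/EBP motif, were found in Ear1 and Ear2, against 10.8% of all windows, and TATAAA only in Epx among the 8, against 13.6%. No 2 matches in a window overlap. Each match is a description of the letters in the window and not a binding site.

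The eosinophil peroxidase gene stands beside those of myeloperoxidase and lactoperoxidase, the other haem peroxidases of this cluster. Mpo, the myeloperoxidase of neutrophils, had 18, 104, 62 and 9 reads in the libraries labelled Alox15-/- and 4, 4, 11 and 14 in libraries labelled WT. Replicate 4 labelled Alox15-/- thus lies within the WT range for Mpo, which is not so for Epx. Its log2 fold change of 3.12 missed the threshold (adjusted p = 0.062, edgeR). Lpo, lactoperoxidase, had at most 2 reads in a library. None of the 9 neighbours of Epx that were tested, within 250 kb on either side, passed the threshold in edgeR or in DESeq2, and 4 of them had an unadjusted p under 0.05 in edgeR.

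The ribonucleases Ear1, Ear2 and Ear6 were low in all libraries and had 64 reads in the libraries labelled Alox15-/- against 4 in libraries labelled WT. Ear1, on the minus strand at chr14:43818765-43875517, had 4, 8, 8 and 3 reads in the libraries labelled Alox15-/- and 0, 1, 1 and 2 in libraries labelled WT. The groups do not overlap, though the lowest library labelled Alox15-/- is only 1 read above the highest library labelled WT. Its pooled level was 7.82 times that of WT (exact 95% interval 2.67 to 31.1, counting error only). Ear6, at chr14:51853699-51854643 on the plus strand, had 5, 6, 15 and 6 reads in the libraries labelled Alox15-/- and none in libraries labelled WT, and was at least 14.5-fold higher over the pooled reads. Replicate 3 holds 15 of its 32 reads. Ear2, at chr14:44102654-44103534 on the plus strand, had 0, 4, 1 and 4 reads against none, at least 4.08-fold higher over the pooled reads. As replicate 1 labelled Alox15-/- had no Ear2 read, the groups overlap at 0.

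Values of single Ear genes are uncertain, since these genes are near copies of each other and reads could be split between them. In the GENCODE M21 transcripts, Ear1 and Ear2 are identical at 96.0% of aligned positions and at 98.7% over their last 300 bases, where MACE-seq reads fall. Ear6 shares 88.5% with Ear1 and 88.2% with Ear2. Ear10, which has no row in the counts, shares 91.4% of its last 300 bases with Ear1. Prg2 and Prg3 share 57.3%, and 61.7% over their last 300 bases. The Ear1 gene also overlaps pseudogenes of the family, Ear-ps12 and Ear-ps9, on the same strand, and Ear2 overlaps a long noncoding RNA on the other strand, and whether the counting used strand is not given in the sources used here. None of the 11 other Ear and Rnase2 symbols looked for had a row.

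The windows around the RefSeq starts of the Ear genes are also alike, which is why they are shown. The Ear1 window lies inside the longer interval that GENCODE gives for that gene. They are chr14:43819590-43819889 on the minus strand for Ear1, chr14:44102404-44102703 on the plus strand for Ear2 and chr14:51853518-51853817 on the plus strand for Ear6. Capitals mark the bases of Ear2 and Ear6 that do not match the Ear1 window in a global alignment.
Ear1: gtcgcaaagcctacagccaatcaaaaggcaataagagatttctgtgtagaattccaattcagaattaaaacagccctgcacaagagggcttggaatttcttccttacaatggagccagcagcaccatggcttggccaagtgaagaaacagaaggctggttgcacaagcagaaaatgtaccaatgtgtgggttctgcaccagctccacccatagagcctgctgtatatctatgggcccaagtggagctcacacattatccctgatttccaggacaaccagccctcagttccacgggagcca
Ear2: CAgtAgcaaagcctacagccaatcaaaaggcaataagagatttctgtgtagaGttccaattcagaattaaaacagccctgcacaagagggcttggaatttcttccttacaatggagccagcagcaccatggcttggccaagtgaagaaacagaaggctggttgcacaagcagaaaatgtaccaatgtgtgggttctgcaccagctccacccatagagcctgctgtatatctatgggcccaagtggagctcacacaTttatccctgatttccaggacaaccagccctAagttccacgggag
Ear6: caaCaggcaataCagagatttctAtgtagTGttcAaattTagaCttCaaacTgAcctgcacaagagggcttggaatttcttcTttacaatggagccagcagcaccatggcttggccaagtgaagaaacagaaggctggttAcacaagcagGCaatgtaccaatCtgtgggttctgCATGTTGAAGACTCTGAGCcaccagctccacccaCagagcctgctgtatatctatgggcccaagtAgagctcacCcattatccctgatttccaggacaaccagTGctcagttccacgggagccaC

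The Ear2 window is identical to that of Ear1 at 97.0% of aligned positions, with 6 capitals. The Ear6 window is identical to that of Ear1 at 80.7%, with gaps counted as differences, and carries a stretch of capitals that the Ear1 window lacks. The C/EBP letters lie 92 bases before the start of Ear1 and 90 before that of Ear2. In the Ear6 window the stretch aligned to these letters holds a capital, and the letters are not found.

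The receptor genes had few reads. Siglecf (chr7:43351341-43359531, plus strand) had 3, 1, 0 and 0 reads in the libraries labelled Alox15-/- and 0, 0, 0 and 1 in libraries labelled WT. Il5ra, the IL-5-binding chain (chr6:106710357-106749037, minus strand), had 2, 0, 0 and 2 reads against 0, 0, 0 and 1. Both had 4 reads against 1, a pooled ratio of 5.44 with an exact 95% interval of 0.539 to 268. A difference in either gene was not detectable at this depth.

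Ccr3, the eotaxin receptor (chr9:124021972-124031689, plus strand), had most of its reads in 1 library. It had 1, 0, 1 and 0 reads in the libraries labelled Alox15-/- and 0, 39, 3 and 0 in libraries labelled WT. WT replicate 2 alone holds 92.9% of the WT reads, so the groups overlap. The pooled level was 15.4 times higher in libraries labelled WT (exact 95% interval 4.01 to 132), and without WT replicate 2 it rests on 3 reads against 2. In that library Ccr3 reached 6.21 CPM, while Prg2 and Epx were each within the range of the other libraries labelled WT. Of the chemokine receptor genes nearby, WT replicate 2 had 1 read of Ccr1, none of Ccr2 and 16 of Cxcr6, no more reads of any of these than the highest of the other libraries labelled WT.

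Fitted without the filter on low counts, the set gave 5 genes higher (Prg2, Prg3, Epx, Ear1 and Ear6) and 1 lower (Ccr3), beside 1.06% of 28239 symbols higher and 0.319% lower. Nothing is read from these counts, for the same reason as above. With 1 library omitted at a time, the log2 fold change of Ear1 was between 2.46 and 3.46, and that of Ccr3 was between -4.30 and -0.36, the last without WT replicate 2.

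To place the 9 genes among others of eosinophil biology, 68 further symbols were listed by role, of which 51 had a row and 29 were tested. Of these, 6 were higher and none was lower in edgeR (8 and 0 in DESeq2), beside 1.05% higher and 0.197% lower among all genes tested, 2 had a negative change at an unadjusted p under 0.05, and 18 had a positive log2 fold change, with a median of 0.24, compared with a median of -0.01 and 6123 positive values among all 12700 genes tested. The 6 were Csf2rb, Csf2rb2, Gata2, Alox5, Alox5ap and Fcer1g. They include the shared receptor chain and the leukotriene enzymes, genes that mast cells, basophils and other myeloid cells are also known to use. Gata2 and Alox5ap each reached 2 CPM in 5 libraries, the 4 labelled Alox15-/- among them, so those 4 alone sufficed for the filter.

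Apart from Ccl5, the ligands of the receptors were scarcely detected. Il5 had 1 read in all, in WT replicate 2. Il3 had 10, 0, 0 and 1 reads in the libraries labelled Alox15-/- and 3, 2, 2 and 12 in libraries labelled WT, and was not tested. Ccl5, a chemokine that binds Ccr3, was at 6.33 ± 2.06 CPM against 2.78 ± 1.02 CPM (SD, n = 4 each), a log2 fold change of 1.21 that missed the threshold in edgeR (adjusted p = 0.116) and passed it in DESeq2 and in the edgeR fit without a filter.

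The chains of the IL-5, IL-3 and GM-CSF receptors divided, with the beta chains past the threshold and the tested alpha chains not. Csf2rb, the beta chain that signals with Il5ra, had 151, 239, 164 and 105 reads in the libraries labelled Alox15-/- and 17, 21, 56 and 30 in libraries labelled WT. The groups do not overlap, and replicate 2 labelled Alox15-/- was the highest, as for Prg2. Csf2rb rose by a log2 fold change of 3.0 (SE 0.380, adjusted p = 0.000362, edgeR). Its close paralog Csf2rb2, the beta chain specific to IL-3 in mice, rose by 3.08 (SE 0.392, adjusted p = 0.000362, edgeR), and reads could be split between the pair. The alpha chains Csf2ra and Il3ra, which are not shared, had log2 fold changes of 0.87 and -0.26, neither past the threshold (adjusted p = 0.317 and 0.85, edgeR). For Csf2ra the groups do not overlap, at 2.88 to 3.95 CPM against 1.25 to 2.21 CPM, and for Il3ra they do. Of the 9 tested genes of IL-5 receptor signalling, none passed in edgeR, where 3 had an unadjusted p under 0.05, and 1 passed in DESeq2, the feedback inhibitor Socs3. Cish, a STAT5-induced inhibitor of cytokine signalling, was at 345 ± 13.4 CPM against 425 ± 46.5 CPM (adjusted p = 0.3, edgeR), and the kinase Pim1 at 396 ± 39.4 CPM against 367 ± 57.6 CPM (adjusted p = 0.871, edgeR).

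Of 9 tested transcription factors of the eosinophil lineage, Gata2 passed the threshold. Gata2, a factor of eosinophil, basophil and mast cell development, had 38, 90, 36 and 58 reads in the libraries labelled Alox15-/- and 4, 8, 10 and 11 in libraries labelled WT, a log2 fold change of 3.24 (SE 0.457, adjusted p = 0.00101, edgeR). Replicate 2 labelled Alox15-/- was well above the others at 24.3 CPM. Gata1, the factor eosinophils require, was at 10.2 ± 3.83 CPM against 7.63 ± 5.16 CPM (adjusted p = 0.871, edgeR), and its groups overlap. Irf8 and Xbp1, also needed for eosinophil development, had log2 fold changes of -0.11 and -0.09 (adjusted p = 0.925 and 0.894, edgeR).

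Among other receptors and enzymes, 3 of 6 tested genes rose. Alox5, which makes leukotriene precursors, rose by a log2 fold change of 2.61 (SE 0.380, adjusted p = 0.00129, edgeR), and its partner Alox5ap by 2.38 (SE 0.382, adjusted p = 0.00298, edgeR). Fcer1g, the signalling chain of Fc receptors, rose by 2.35 (SE 0.344, adjusted p = 0.00129, edgeR). The groups do not overlap for any of these 3. Selplg and Itga4, adhesion molecules that T cells also carry, had log2 fold changes of 0.01 and 0.18 (adjusted p = 0.988 and 0.912, edgeR).

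**Figure D3:**
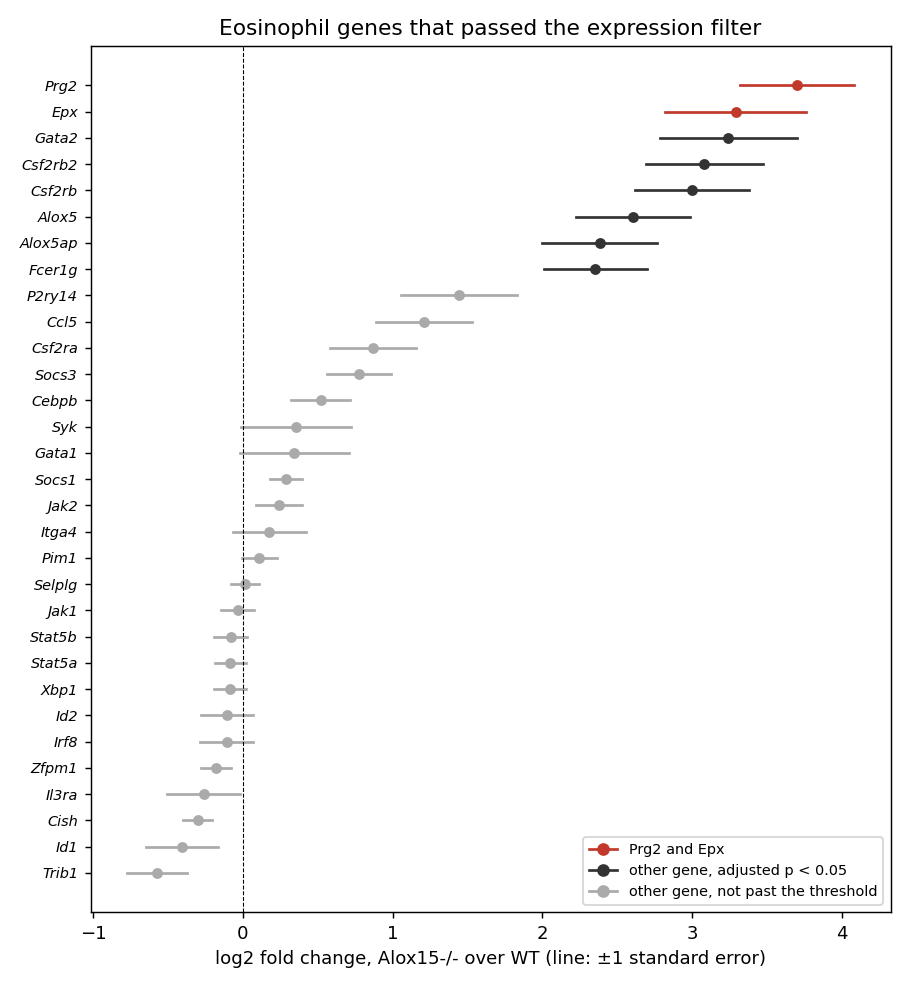
Log2 fold change (horizontal axis, Alox15-/- over WT, libraries as labelled) of Prg2 and Epx and of the 29 other eosinophil genes that passed the filter, with lines of 1 standard error on each side. The 6 genes past the adjusted threshold lie between 2.35 and 3.24, and 3 further genes, P2ry14, Ccl5 and Csf2ra, come next without passing.

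Markers of other cells moved with the granule genes, and their part in these values was not tested. The summed level of 14 mast cell and basophil markers was 228 to 665 CPM in the libraries labelled Alox15-/- and 62.4 to 103 CPM in libraries labelled WT, and 10 of 11 tested rose (edgeR). Of these 10, 5 (Ms4a2, Cma1, Prss34, Hdc and Cd200r3) passed the filter only through the libraries labelled Alox15-/- and so had to differ. The tested marker that did not rise was Kit, at 30.7 CPM against 31.5 CPM on average (adjusted p = 0.971, edgeR). For neutrophils the summed level was 25.5 to 359 CPM against 5.15 to 10.9 CPM, with 4 of 5 tested genes rising in edgeR and DESeq2 and 1 in limma-voom. Of the 4, S100a9 and Ngp passed the filter only through the libraries labelled Alox15-/-, and the defining markers Ly6g and Mmp8 had 1 and 2 reads there and none in libraries labelled WT. Red cell markers ran from 915 to 3504 CPM against 72.7 to 139.9 CPM, with 5 of 6 rising, of which Alas2 passed the filter in the same way. These ranges do not overlap, and in each list replicate 4 labelled Alox15-/- was the lowest of its group, as it was for the 9 genes. Monocyte and macrophage markers were at 32.3 to 101 CPM against 9.63 to 19.8 CPM, with 1 of 4 tested rising and C1qb at 3 reads against none. The list of NK and γδ T cell markers was at 82.7 to 153 CPM against 30.9 to 47.9 CPM. The 4 of its 5 tested genes that rose, Trdc, Tcrg-C1, Tcrg-C2 and Tcrg-C4, are all γδ T cell receptor constant genes, while the NK markers Ncr1, Klrb1c and Klra8 were below the filter and their groups overlap. The ranges of CD4 T cell and Treg markers (4008 to 4328 CPM against 4122 to 4762 CPM, 0 of 11 past the threshold in edgeR or DESeq2, 2 at an unadjusted p under 0.05) and of B cell markers (215.5 to 314 CPM against 212 to 309 CPM) overlap. The same holds for CD8 T cell and dendritic cell markers, with 0 of 2 and 0 of 1 tested genes rising in edgeR or DESeq2. It holds too for group 2 innate lymphoid markers, a sum made mostly of Bcl11b, which T cells also express (183 CPM against 176 CPM on average). Il1rl1, the IL-33 receptor of that list, was at 2.43 to 19.2 CPM against 0.478 to 1.25 CPM, and passed the filter only through the libraries labelled Alox15-/-. Both CD8 genes had a negative change at an unadjusted p under 0.05, and 1 of 4 B cell genes, Ms4a1, fell. The summed platelet markers, at 2.88 to 15.4 CPM against 1.12 to 2.21 CPM, do not overlap, and their 1 tested gene, which passed the filter in the same way, was past the threshold in DESeq2 and not in edgeR.

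**Figure D4:**
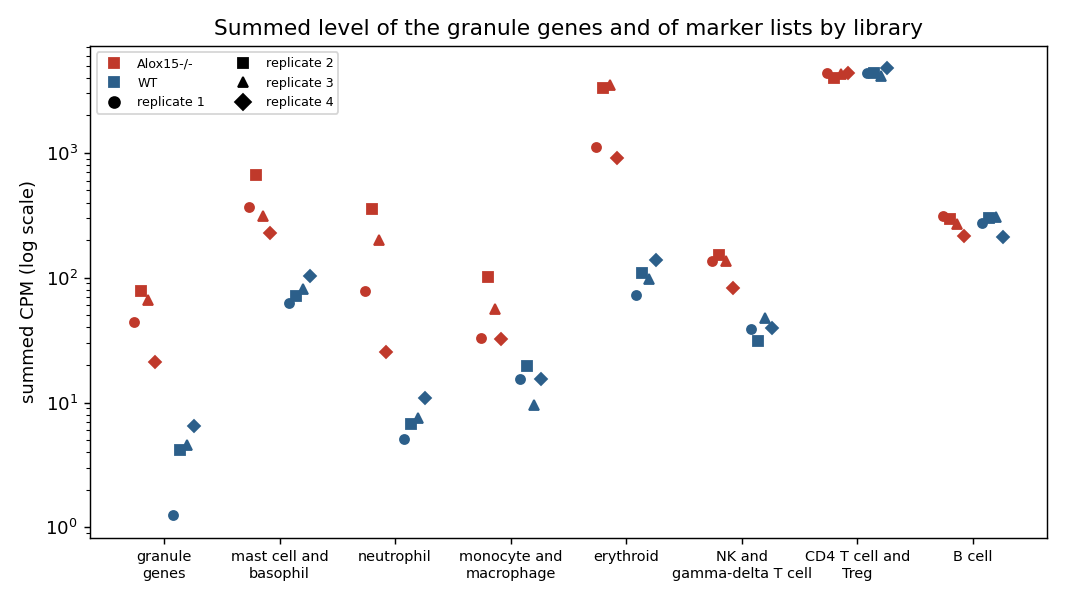
Summed CPM (vertical axis, log scale) of the 6 granule genes and of 7 lists of marker genes, with 1 point per library. The granule, mast cell and basophil, neutrophil and erythroid sums of all libraries labelled Alox15-/- lie above those of all libraries labelled WT, and the CD4 T cell and Treg sums overlap.

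The size of the spread within the group differed between lists. From the lowest to the highest library labelled Alox15-/-, the summed level of the 9 genes differed 3.61-fold, that of the red cell markers 3.83-fold, that of mast cell and basophil markers 2.91-fold and that of the neutrophil markers 14.1-fold. Replicate 2 was highest for the 9 genes and for the mast cell and basophil, neutrophil and monocyte markers, and replicate 3 for the red cell markers.

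Of 156 other genes past the threshold, the 5 whose profile over the 8 libraries was nearest to that of the summed 9 genes were Cd63, Ctsg, Mcpt1, Cd63-ps and Gpnmb. Likeness was the root mean square difference of log2(CPM + 1), each centred on its own mean, and it was 0.449 for Cd63, 0.559 for Ctsg, 0.572 for Mcpt1, 0.572 for Cd63-ps and 0.583 for Gpnmb, with a median of 1.22 over the 156 genes. The 156 genes had passed the threshold on the same contrast, and the measure includes the difference between the groups. Nearness is therefore in part a group difference of similar size and direction. Cd63, a tetraspanin of granule and lysosome membranes, was at 25.5, 56.7, 28.2 and 10.4 CPM in the libraries labelled Alox15-/- and at 0.78, 2.07, 2.31 and 2.71 CPM in libraries labelled WT. It shares the order of Prg2 in the first group. Reads of Cd63 and its pseudogene Cd63-ps could be split between them. Ctsg codes for cathepsin G of neutrophil and mast cell granules, Mcpt1 for a mast cell protease and Gpnmb for a membrane glycoprotein of macrophages.

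**Figure D5:**
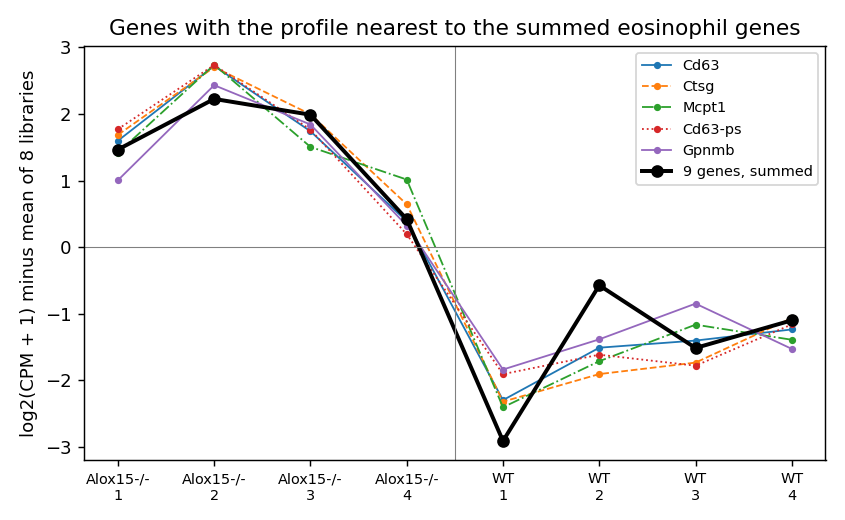
Centred log2(CPM + 1) (vertical axis) over the 8 libraries for the summed 9 genes (thick line) and the 5 genes with the nearest profile. All lie above 0 in the 4 libraries labelled Alox15-/-, with replicate 2 highest, and below 0 in the libraries labelled WT, where the summed 9 genes are raised in replicate 2 by its Ccr3 reads.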

How the data were processed

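Per the labels and the study's methods, RNA of 8 cultures on day 2 of Treg differentiation, 4 labelled Alox15-/- and 4 WT, was sequenced by MACE-seq on an Illumina NextSeq500. The labels describe a small RNA kit instead. The table the authors deposited gives unnormalized counts for 28239 gene symbols, and 26 symbols look like dates. The submitters' processing notes list Bowtie, edgeR and GRCm38. How reads were assigned to genes and whether duplicates were removed is not given in the sources used here. Columns were assigned to libraries by name.

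The filter kept 12700 genes that reached 2 CPM in 4 or more libraries. Counts were scaled by TMM and the quasi-likelihood test of edgeR 4.0.16 (R 4.3.3) was fitted on the group alone. Adjustment was by Benjamini–Hochberg across these genes, and an adjusted p below 0.05 was a call. The biological coefficient of variation was 14.5%. The 9 genes and all lists were chosen with earlier results of these data known. Pooled reads were compared by exact conditional 95% intervals, and groups without reads by a floor of 3 counts over the group. The genes named are the 9 genes, Alox15, the 5 nearest profiles and, of the 68 further eosinophil symbols, those past the threshold and the 2 with the highest mean CPM in each list. Marker lists were given as counts and sums. Il5, Gata1, Socs3, Ms4a1, P2ry14, Trib1, the alpha chains, single marker genes and the neighbouring genes were named after their values were seen. Alternatives were other scalings and filters, robust fitting, DESeq2 1.42.0, limma-voom (limma 3.58.1), the replicate number as a block, and leaving out libraries. Positions came from GENCODE M21 on GRCm38, and alignments were made with Biopython 1.88. Exact intervals used scipy 1.17.1 and plots matplotlib 3.10.9.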

Additional observations from a re-analysis of the deposited data

Results flagged for a closer look

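In 34 groups of 4 libraries examined, 4 had a highest library far from the other 3. The rule flags about 1 in 20 groups of normally distributed values by chance. That rate does not hold for counts near 0, where a gene with reads in a single library of a group is always flagged. Ccr3 in WT replicate 2 was at 6.21 CPM, with the other libraries labelled WT at 0 to 0.301 CPM. Gata2 in replicate 2 labelled Alox15-/- was at 24.3 CPM, with the others at 6.77 to 9.13 CPM. Siglecf and Il5ra were each at 0.209 CPM in WT replicate 4, which is a single read for either gene, with no read in the other libraries labelled WT.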

How the results depend on the processing

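Over 18 alternatives, the log2 fold change of Prg2 was between 3.09 and 3.97 and that of Epx between 2.62 and 3.63, and both were positive in each. The number of genes past the threshold was 158 and became 388 without a filter, where 6 of the 9 genes and 12 of the other eosinophil genes passed, 11 of these higher and 1, Trib1, lower. DESeq2 called 194 genes and limma-voom 140. Leaving out 1 library gave 86 to 173 genes, always with 2 of the 9 genes, and 6 to 7 other eosinophil genes. Without replicates 2 and 3 labelled Alox15-/-, an alternative chosen after seeing the data, 60 genes passed, among them Prg2, Epx and 4 other eosinophil genes. Gata2 and Alox5ap were then below the filter and not tested. The ratio of the summed 9 genes was between 5.75 and 12.1. Replicate numbers are shared between the groups. The deviations of same-numbered libraries correlated at 0.067, 0.179, -0.198 and -0.017, and those of differently numbered libraries at -0.236 to 0.159. With 4 libraries per group, these values cannot show whether the numbers pair the samples. With the replicate block, 146 genes passed, again with 2 of the 9, and the counts of calls moved by less than 1.5 times. Fits without a filter and with each library left out were also added after seeing the data. Depth limits the 7 genes below the filter, and in Ear1 the groups are 1 read apart.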
